A study of Homo sapiens with 6 samples.

Results

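Kinesin and dynein motor genes were compared between Panc-1 cells treated with TGFβ and untreated Panc-1 cells. Members were the probe sets annotated to a single gene whose symbol is KIF with a number and an optional letter, KIFC1, KIFC2, KIFC3, KIFAP3, KLC1 or KLC2, or begins with DYNC or DYNL. The rule found 138 probe sets of 62 genes, among 41091 single-gene probe sets of 19777 genes. Panc-1 is an established line from a human pancreatic carcinoma, and TGFβ is a cytokine known for driving epithelial cells into a mesenchymal state (epithelial-mesenchymal transition, EMT). Treated cells were kept without serum for 24 h and then given porcine TGFβ 1 at 5 ng/mL for 48 h. By the study's methods the untreated cells were starved of serum likewise and then received medium without TGFβ. The study's methods give the dose in another unit (nM), and which is right is not settled here. Each group had 3 arrays (Affymetrix U133 Plus 2.0), and a pair of arrays below is a TGFβ and an untreated array of the same replicate number, matched by that number only. The study's methods speak of triplicate experiments per condition, but the labels do not tie the arrays to separate cultures. The p-values therefore measure the spread between these arrays, which may be technical.

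Kinesins and dyneins are motor proteins that turn ATP into movement along microtubules. Most kinesins move towards the growing plus end, whereas dyneins and the KIFC kinesins move towards the minus end. Mitotic kinesins build the spindle, move chromosomes and organise the midzone where the cell divides. Transport kinesins carry vesicles, organelles and protein complexes in interphase. Cytoplasmic dynein-1 works with dynactin and cargo adaptors throughout the cell, and dynein-2 returns material from the tip of the primary cilium, a microtubule-based antenna that kinesin-2 supplies in the outward direction.

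Values are log2 signals, and a gene's value is the mean over those of its probe sets with a mean signal of at least 100 (6.64 on the log2 scale) in at least one group. This limit was passed by 75 probe sets of 47 member genes, and by 19101 probe sets of 10115 genes in all. The medians of the 6 arrays lay between 5.14 and 5.21, the lowest correlation within a group was 0.995, and correlations between groups were 0.954 to 0.959. The epithelial genes KRT8, KRT18 and EPCAM were above the limit in both groups and lower with TGFβ, with log2 fold changes of -2.18, -1.25 and -0.80. CDH1 was also lower (-2.02), but its TGFβ mean, 5.56, was below the limit, so a difference was in part required. With all its probe sets included, CDH1 was at -1.19. KRT7 did not pass the test (0.24), and KRT19 lay below the limit. None of the 9 markers of blood, endothelium, red cells, liver or islets that were on the array was above the limit. Bulk arrays cannot tell fewer cells of a type from less RNA per cell.

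By limma with Benjamini-Hochberg adjustment over all genes, 31 of the 47 motor genes (66%) had an adjusted p under 0.05, against 58.7% of all genes tested. Of these, 15 were higher with TGFβ (31.9%, against 27.7% of all genes) and 16 were lower (34%, against 31% of all genes). The share of motor genes called was therefore close to that of all genes. Differences were small. The largest log2 fold changes were 0.63 for KIF16B and -0.65 for DYNC2LI1. These were the only 2 members past the test at 1.5-fold or more, whereas 13.4% of all genes were. The rise of KIF16B came from a probe set above the signal limit only with TGFβ, and its brighter probe set gave 0.034. The median log2 fold change was -0.050 for the motor genes and -0.013 for all genes, and the median absolute log2 fold change was 0.25 and 0.21. The arrays of the 2 groups did not overlap for 32 of 47 members (68.1%), against 68.2% of all genes. Within a group, the SD of a member ranged from 0.0081 to 0.26, with a median of 0.067.

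**Figure D1:**
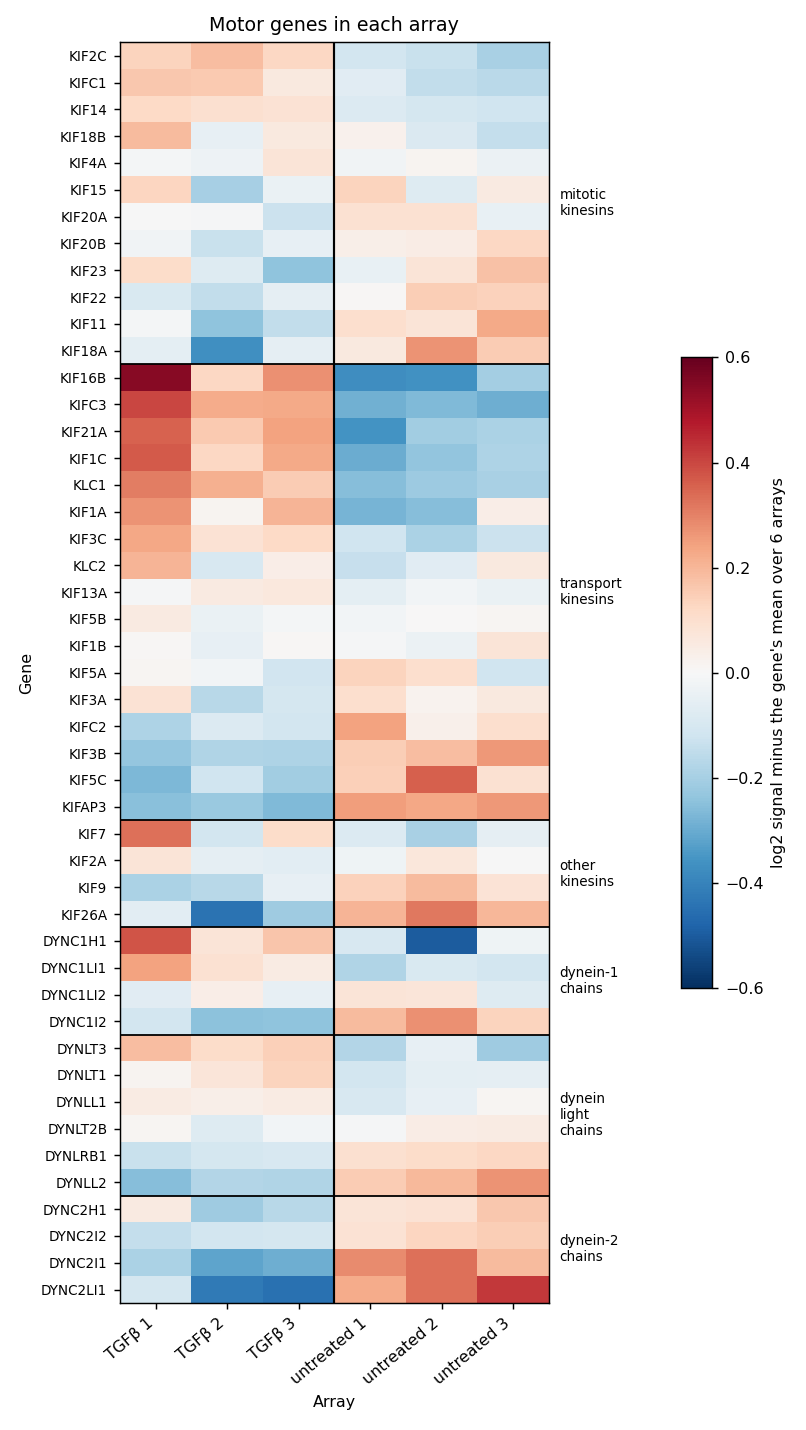
Log2 signal of each tested motor gene (rows) on each array (columns, TGFβ left of the line and untreated right), as the difference from that gene's mean over the 6 arrays; red is above and blue below the mean. Dynein-2 rows are blue under TGFβ, except DYNC2H1 on the first TGFβ array, while kinesin rows of both classes contain genes of either colour.

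Mitotic kinesins were found in both directions. Of the 13 members on the array, 12 were tested, of which 3 were higher with TGFβ, 3 were lower and 6 did not pass the test. That was 25% in each direction, against 27.7% of all genes higher and 31% lower. KIF2C, a depolymerase that releases wrongly attached microtubules from kinetochores, was at 9.47, 9.52 and 9.46 in TGFβ arrays, against 9.23, 9.20 and 9.14 in untreated arrays. All TGFβ arrays lay above all untreated arrays, with a log2 fold change of 0.29 (SE 0.049, adjusted p = 0.0032). KIFC1, a minus-end motor that focuses spindle poles and clusters extra centrosomes, stood at 8.03, 8.03 and 7.93 with TGFβ and 7.80, 7.72 and 7.71 without it. Its groups did not overlap either (0.25, SE 0.050, adjusted p = 0.0061). KIF14, needed at the midbody for the final cut between daughter cells, was higher by 0.20 (adjusted p = 0.012), although the brighter of its 2 probe sets alone gave 0.071 and did not pass.

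KIF11, the motor that pushes spindle poles apart and the target of several anti-mitotic compounds, went the other way. It was at 8.82, 8.59 and 8.68 in TGFβ arrays, against 8.93, 8.91 and 9.06 in untreated arrays, and every TGFβ array was below every untreated one (log2 fold change -0.27, SE 0.066, adjusted p = 0.014). KIF18A, which damps the oscillation of chromosomes at the spindle equator, read 7.02, 6.71 and 7.02 with TGFβ against 7.14, 7.35 and 7.23 without. The second pair of arrays carried most of its log2 fold change of -0.32 (SE 0.10, adjusted p = 0.037), and without that pair it was -0.16 and did not pass. KIF22, a chromokinesin that pushes chromosome arms towards the equator, was lower by a small margin (-0.19, adjusted p = 0.027). The dimmer of its 2 probe sets alone gave -0.10, with overlapping groups, and did not pass.

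The mitotic kinesins with the smallest differences were KIF4A and KIF15. KIF4A, a chromokinesin that also limits the length of the midzone with PRC1, was at 8.22, 8.20 and 8.31 in TGFβ arrays and 8.21, 8.25 and 8.20 in untreated arrays. These ranges overlap, and the adjusted p was 0.71. KIF4B, the near-identical copy of KIF4A, has no probe set of its own among the members, and the arrays may not tell the pair apart. KIF15, a spindle motor that can stand in for KIF11, was at 7.06, 6.73 and 6.88 with TGFβ and 7.06, 6.85 and 6.98 without (adjusted p = 0.26). The others that did not pass were KIF18B (0.13), KIF20A (-0.094), KIF20B (-0.14) and KIF23 (-0.14). KIF20A and KIF23 are midzone motors, KIF20A as the carrier of the AURKB complex and KIF23 as the partner of RACGAP1.

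The count of mitotic kinesins past the test moved with the pair of arrays left out, and so did that of all genes. Without the second pair 1 of 12 passed (42.5% of all genes), without the third 3 (46.6%) and without the first 8 (63.9%), while 11 transport kinesins passed in each case. KIF2C alone passed without the second pair, when KIF11 was at -0.24, KIFC1 at 0.22, KIF14 at 0.20 and KIF22 at -0.14. Without the third pair KIF11 (-0.21), KIF14 (0.20) and KIF22 (-0.20) did not pass, and without the first KIF20B (-0.18) and KIF23 (-0.28) were lower as well.

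Promoters of the mitotic kinesins are shown because the class is known for a shared promoter layout while its members moved in both directions here. Many genes of late cell cycle carry a cell cycle genes homology region (CHR), a short element read by repressor and activator complexes, with CCAAT boxes upstream of it. RefSeq promoter windows (GRCh38.p14, 250 bases before to 50 after the start of transcription) were found for 41 of the 47 tested members, in 52 windows. DYNLT2B, KLC2, KIFC2, DYNLL2, KIFC3 and KIF5A had no entry. The letters TTTGAA, on either strand, were in 9 of 13 windows of mitotic kinesins, 1 of 18 windows of transport kinesins and 15.2% of all 35116 windows. CCAAT, on either strand, was in 10 of 13, 5 of 18 and 34.6%. KIF2C, KIF20A and KIF22 had no TTTGAA in theirs. The stretches below run from 100 bases before to 25 after the start, on the gene's strand, for 2 members that were lower with TGFβ (KIF11, chr10:92593030-92593154, + strand, and KIF18A, chr11:28108132-28108256, - strand) and 2 that were higher (KIF14, chr1:200620727-200620851, - strand, and KIFC1, chr6:33391723-33391847, + strand). Capitals mark TTTGAA or its reverse complement TTCAAA, and CCAAT or its reverse complement ATTGG.
KIF11: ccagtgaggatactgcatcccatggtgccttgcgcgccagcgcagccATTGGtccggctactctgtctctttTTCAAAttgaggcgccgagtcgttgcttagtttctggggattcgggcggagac
KIF18A: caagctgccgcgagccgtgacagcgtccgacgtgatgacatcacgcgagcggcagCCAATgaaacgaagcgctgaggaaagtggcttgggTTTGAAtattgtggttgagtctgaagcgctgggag
KIF14: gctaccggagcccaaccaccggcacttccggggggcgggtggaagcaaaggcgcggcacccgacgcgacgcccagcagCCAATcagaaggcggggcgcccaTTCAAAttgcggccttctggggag
KIFC1: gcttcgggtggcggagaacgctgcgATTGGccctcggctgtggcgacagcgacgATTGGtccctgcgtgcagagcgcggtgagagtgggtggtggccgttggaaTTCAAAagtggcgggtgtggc
These 4 were the mitotic kinesins past the test that had both sets of letters, so having both was not a result. In all 4 the CHR letters lay downstream of the CCAAT letters, at -28 in KIF11, -10 in KIF18A, +2 in KIF14 and +5 in KIFC1, counted from the start of transcription. Members with these letters were thus found among the genes that were higher, lower and not past the test. A match of letters is a description, not a site.

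Transport kinesins differed more in size than mitotic kinesins. Of 20 on the array, 17 were tested, of which 7 were higher with TGFβ, 4 were lower and 6 did not pass. That was 41.2% higher and 23.5% lower, against 27.7% and 31% of all genes. The median absolute log2 fold change was 0.33 in transport kinesins and 0.17 in mitotic kinesins, and the median signed value was 0.074 and -0.084. In the 3 pairs of arrays, the median of transport kinesins was 0.073, -0.015 and 0.0074, against 0.0040, -0.11 and -0.091 for mitotic kinesins. The transport median was above the mitotic one in each pair, but its sign differed between pairs. Among transport kinesins, KIFC3 was above the signal limit only with TGFβ and KIF5C only without it, so their differences were in part required. The same held for the probe set that carried the rise of KIF16B, which was above the limit only with TGFβ. With the limit set on the mean of all arrays, the medians were 0.039 for transport and -0.084 for mitotic kinesins. Without a limit they were -4.2e-05 and -0.072. The difference between the classes was given no test, because their members were chosen with results known.

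**Figure D2:**
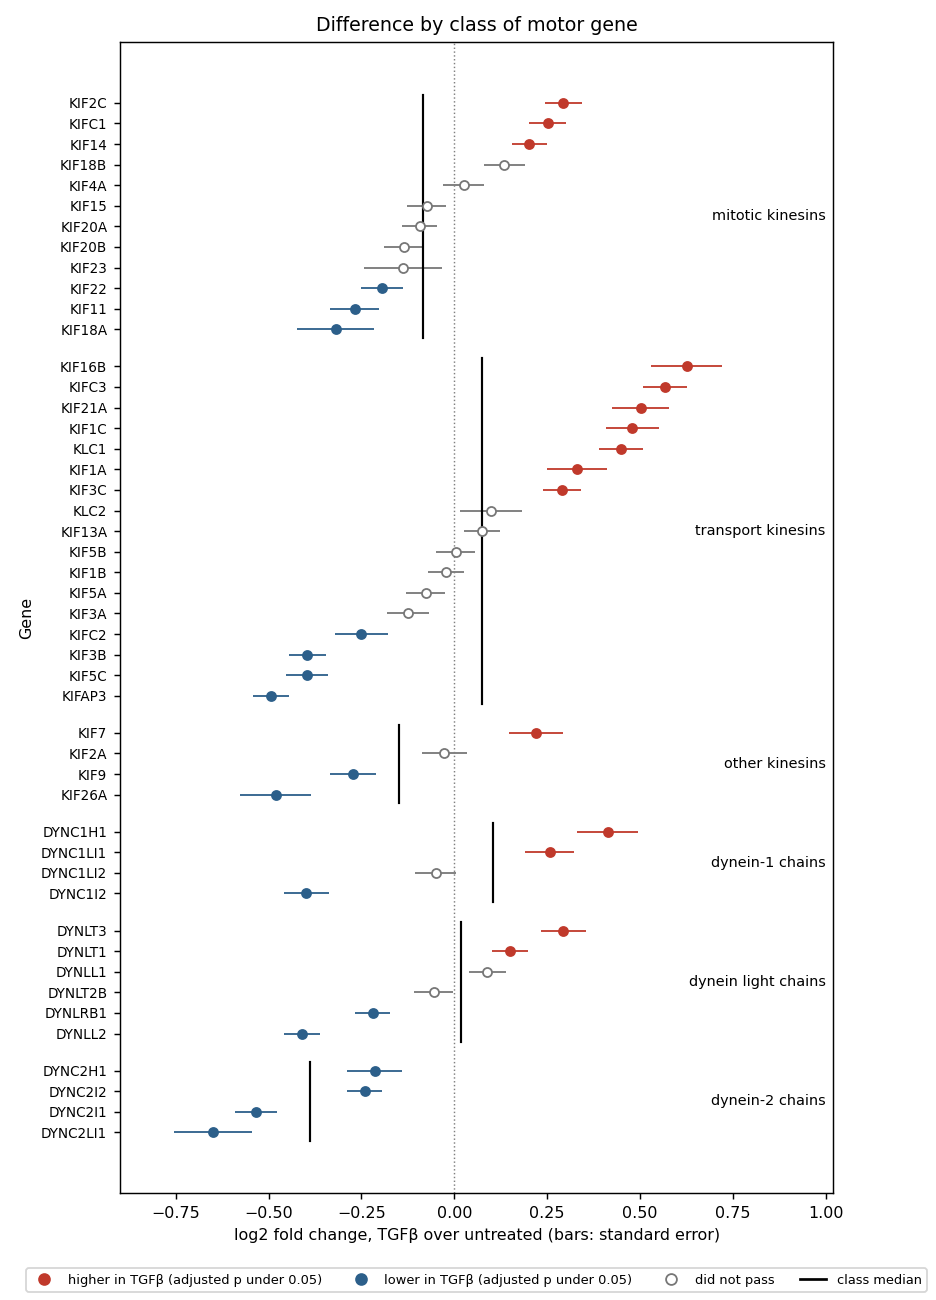
Log2 fold change of each tested motor gene (TGFβ over untreated, bars are the SE of the model) by class; filled points passed the test (red higher, blue lower), open points did not, and vertical lines are class medians. Transport kinesins run from -0.49 to 0.63 and mitotic kinesins from -0.32 to 0.29, and the 4 DYNC2 chains lie below 0.

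KIF16B, which binds early endosomes through a lipid-binding domain and moves them outward, had the largest rise among the motor genes. It was at 8.16, 7.74 and 7.89 in TGFβ arrays, against 7.24, 7.25 and 7.41 in untreated arrays (log2 fold change 0.63, SE 0.095, adjusted p = 0.0022). All TGFβ arrays were higher. The rise came from only one of its 2 probe sets, whose untreated mean was below the signal limit, as described below. KIFC3, a minus-end motor of apical transport and of cell-cell junctions, was at 6.81, 6.64 and 6.64 with TGFβ, against 6.13, 6.15 and 6.12 without it, a log2 fold change of 0.57 (SE 0.059, adjusted p = 0.00050). Only its TGFβ mean, 6.70, was above the signal limit, so a difference was in part required for it to be tested. KIF21A restrains microtubule growth at the cell cortex but was counted here with the transport kinesins. It was at 10.18, 9.99 and 10.07 with TGFβ and 9.47, 9.62 and 9.64 without (0.50, adjusted p = 0.0022).

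The kinesin-3 family did not move as one. KIF1C, a carrier of dense-core and integrin-bearing vesicles, rose by 0.48 (adjusted p = 0.0019). KIF1A, best known for carrying synaptic vesicle precursors in neurons, rose by 0.33 (adjusted p = 0.014), although its highest untreated array, at 10.01, was above its lowest TGFβ array, at 9.99. KIF13A, which moves recycling endosomes, was 0.074 and did not pass. KIF1B, a carrier of mitochondria and vesicles, was at 9.26, 9.20 and 9.26 in TGFβ arrays and 9.24, 9.22 and 9.33 in untreated arrays, with overlapping groups (adjusted p = 0.72).

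Kinesin-1, the main carrier of the cell, is made of 2 heavy chains (KIF5A, KIF5B or KIF5C) and 2 light chains that bind cargo. The widely expressed heavy chain KIF5B was at 10.58, 10.48 and 10.51 with TGFβ and 10.50, 10.52 and 10.53 without, a log2 fold change of 0.0033 (SE 0.051, adjusted p = 0.96). Its arrays overlapped fully. KIF5C, known as a neuronal heavy chain, was lower (-0.40, adjusted p = 0.0015), with a TGFβ mean of 6.56 that was below the signal limit, and with its 2 dimmer probe sets included it was -0.11 and did not pass. KIF5A did not pass (-0.077). Among the light chains, KLC1 was at 9.70, 9.61 and 9.55 in TGFβ arrays, against 9.14, 9.17 and 9.20 in untreated arrays (0.45, SE 0.060, adjusted p = 0.0013). KLC2 did not pass (0.099). The minus-end motor KIFC2, known from neurons, was lower (-0.25, adjusted p = 0.024), although the brighter of its 2 probe sets alone gave -0.19 and did not pass.

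Kinesin-2, the outward motor of the cilium, is built of KIF3A, either KIF3B or KIF3C, and the adaptor KIFAP3. KIFAP3 was at 9.19, 9.22 and 9.18 in TGFβ arrays, against 9.69, 9.67 and 9.70 in untreated arrays. The arrays within each group lay close together, and the log2 fold change was -0.49 (SE 0.049, adjusted p = 0.00040). KIF3B, at 9.71, 9.76 and 9.76 with TGFβ and 10.09, 10.13 and 10.20 without, was also lower in all arrays (-0.40, SE 0.049, adjusted p = 0.00096). KIF3C, the alternative partner of KIF3A, was higher instead, at 9.01, 8.86 and 8.90 with TGFβ against 8.66, 8.59 and 8.65 without (0.29, SE 0.050, adjusted p = 0.0036). KIF3A itself was -0.12 and did not pass as a gene, but it was lower and past the test without the first pair of arrays (-0.18) and when its brighter probe set stood for it (-0.37). The ciliary kinesin KIF17 lay below the signal limit.

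The 4 dynein-2 chains with DYNC2 symbols were lower with TGFβ (31% of all genes were), with a median log2 fold change of -0.39, whereas DYNLT2B, a light chain of dynein-2 counted here with the light chains, was -0.055 and did not pass (adjusted p = 0.40). DYNC2LI1, the light intermediate chain, was at 8.13, 7.81 and 7.79 in TGFβ arrays, against 8.46, 8.56 and 8.66 in untreated arrays. The groups did not overlap, and the fall of 1.57-fold (log2 fold change -0.65, SE 0.11, adjusted p = 0.0028) was the largest among the motor genes. DYNC2I1, an intermediate chain also called WDR60, was at 7.51, 7.38 and 7.40 with TGFβ and 7.98, 8.03 and 7.88 without (-0.53, SE 0.057, adjusted p = 0.00056). DYNC2I2, the other intermediate chain (WDR34), was at 8.65, 8.68 and 8.69 with TGFβ against 8.88, 8.92 and 8.94 without. Its groups were narrow and did not overlap (-0.24, SE 0.047, adjusted p = 0.0060). DYNC2H1, the heavy chain that holds the motor, was at 7.41, 7.14 and 7.19 with TGFβ and 7.43, 7.44 and 7.52 without. Its first TGFβ array lay just under the lowest untreated one (-0.21, adjusted p = 0.045), and without the second or the third pair of arrays it was -0.17 or -0.16 and did not pass. With probe sets below the limit included, DYNC2LI1 was at -0.36 and DYNC2I1, read by 1 of its 3 probe sets otherwise, was at -0.18 and did not pass.

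**Figure D3:**
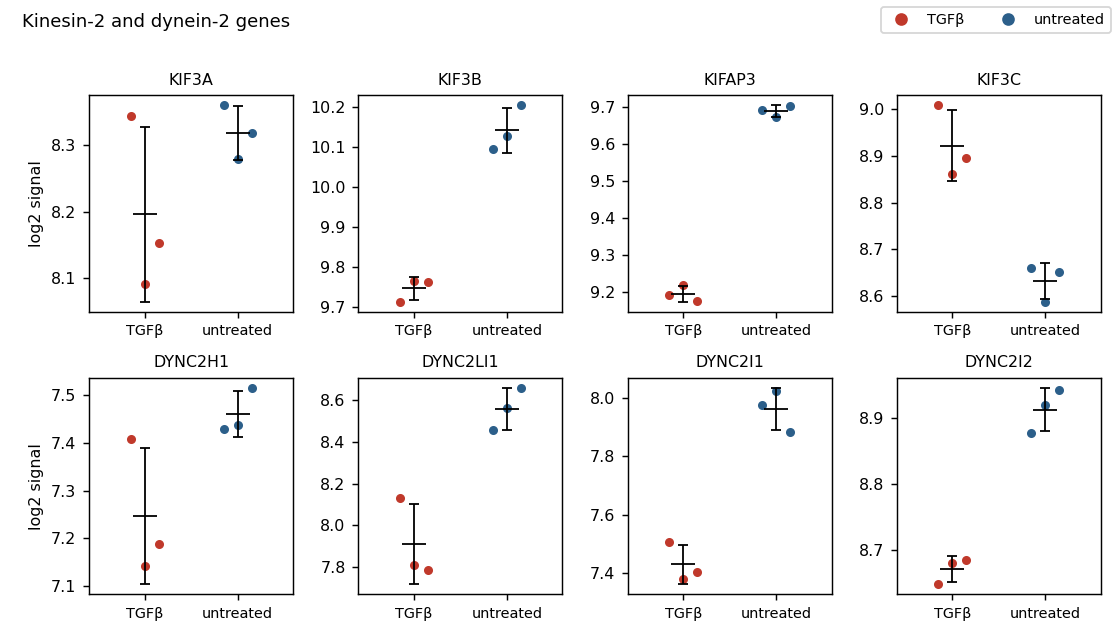
Log2 signal per array (points) of kinesin-2 genes (upper row) and dynein-2 genes (lower row), TGFβ red and left, untreated blue and right; bars are the mean and SD of 3 arrays, and each panel has its own axis that does not start at 0. KIF3B, KIFAP3 and the 4 dynein-2 chains are lower with TGFβ, and KIF3C is higher.

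Dynein-2 promoters are shown because genes of the cilium are often read by RFX factors through the X-box, of which GTTGCC is a common half-site. These letters, on either strand, were in 2 of 5 dynein-2 windows, those of DYNC2LI1 and DYNC2H1, and in 12.2% of all windows. They were not particular to dynein-2 among the motor genes. Windows with them were 2 of 5 in the other kinesins, 2 of 6 in dynein light chains and 1 of 5 in dynein-1. In mitotic kinesins they were 3 of 13, and in transport kinesins 3 of 18. The stretches are chr2:43773939-43774063 (+ strand, DYNC2LI1) and chr11:103109326-103109450 (+ strand, DYNC2H1) of GRCh38.p14, again from 100 bases before to 25 after the start. Capitals mark GTTGCC or its reverse complement GGCAAC.
DYNC2LI1: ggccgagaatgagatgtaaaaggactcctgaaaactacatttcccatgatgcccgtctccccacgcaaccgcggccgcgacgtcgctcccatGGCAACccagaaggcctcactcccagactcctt
DYNC2H1: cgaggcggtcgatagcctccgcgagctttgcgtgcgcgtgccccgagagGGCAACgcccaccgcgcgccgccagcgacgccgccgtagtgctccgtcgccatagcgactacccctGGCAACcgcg
The first base of the match was at -8 in DYNC2LI1 and at -51 and +16 in DYNC2H1. Of the 2 chains with the largest falls, DYNC2LI1 had these letters and DYNC2I1 did not.

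Subunits of the intraflagellar transport (IFT) trains, the cargo platforms that kinesin-2 and dynein-2 move, were listed after the motor values had been seen. Of 20 tested, 1 was higher (27.7% of all genes were), 10 were lower (31% of all genes) and 9 did not pass, with a median log2 fold change of -0.16. WDR19, which joins the train that dynein-2 pulls, was 1.68-fold lower, and CLUAP1 was 1.46-fold lower. IFT57 was the one subunit that was higher (1.22-fold). IFT70B averaged 5.90 ± 0.11 in TGFβ arrays and 7.03 ± 0.13 in untreated arrays (SD, n = 3 each), 2.19-fold lower (adjusted p by limma 0.00019). IFT74 averaged 5.98 ± 0.23 in TGFβ arrays and 7.07 ± 0.056 in untreated arrays, 2.13-fold lower. The TGFβ means of both were below the signal limit, so they were tested only through their untreated arrays and a difference was in part required.

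Among the kinesins outside both classes, 4 of 11 were tested. KIF26A, which lacks motor activity, was lower (-0.48, adjusted p = 0.0063), with TGFβ arrays at 7.00, 6.62 and 6.85 and untreated arrays at 7.27, 7.38 and 7.27. KIF9, a kinesin of cilia and flagella, was also lower (-0.27, adjusted p = 0.011), though not past the test without the second pair of arrays (-0.23). Its 3 probe sets past the limit all have names ending in _x_at, and without such probe sets KIF9 had no value. Its remaining probe set, below the limit, went the other way (0.12). KIF7, the kinesin of the ciliary tip in Hedgehog signalling, was at 7.84, 7.40 and 7.62 with TGFβ and 7.43, 7.32 and 7.45 without. Its groups overlapped, its log2 fold change was 0.22 (adjusted p = 0.042), and it did not pass without the first (0.12) or the third pair (0.25). KIF2A, a microtubule depolymerase of spindle poles and neurites, was at 9.07, 8.94 and 8.93 with TGFβ and 8.97, 9.06 and 9.00 without (-0.027, adjusted p = 0.72).

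In cytoplasmic dynein-1, the heavy chain and one light intermediate chain were higher. DYNC1H1, the motor subunit, was at 10.18, 9.88 and 9.97 in TGFβ arrays, against 9.71, 9.30 and 9.78 in untreated arrays. One untreated array stood low, but the groups did not overlap (0.41, SE 0.081, adjusted p = 0.0060). The brighter of its 2 probe sets past the limit alone gave 0.28, with overlapping groups, and did not pass (adjusted p over all probe sets 0.11). DYNC1LI1 was at 9.54, 9.39 and 9.35 with TGFβ and 9.12, 9.21 and 9.19 without (0.26, SE 0.067, adjusted p = 0.017). Its paralogue DYNC1LI2, at 10.11, 10.21 and 10.12 with TGFβ and 10.25, 10.25 and 10.09 without, did not pass (-0.050, adjusted p = 0.47). The intermediate chain DYNC1I2, which links the motor to dynactin, was lower as a gene (-0.40, adjusted p = 0.0021), but its 2 probe sets differed and the one that fell was above the limit only in untreated arrays, as given below. DYNC1I1, the neuronal intermediate chain, lay below the limit.

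The small light chains that dimerise the intermediate chains divided equally. DYNLT3 (0.29, adjusted p = 0.0074) and DYNLT1 (0.15, adjusted p = 0.038) of the Tctex family were higher, whereas DYNLL2 of the LC8 family (-0.41, adjusted p = 0.00081) and DYNLRB1 of the roadblock family (-0.22, adjusted p = 0.0084) were lower. The probe sets of DYNLL2 differed, and the one that fell most was above the limit only in untreated arrays, as given below. With its probe sets below the limit included, DYNLRB1 was -0.069 and did not pass. DYNLL1, the paralogue of DYNLL2, was at 13.05, 13.04 and 13.05 with TGFβ and 12.91, 12.96 and 13.02 without. The arrays did not overlap, yet it did not pass (0.089, adjusted p = 0.18). DYNLT2B, a Tctex chain of dynein-2, did not pass either, at 10.45, 10.36 and 10.42 with TGFβ and 10.43, 10.48 and 10.49 without (-0.055, adjusted p = 0.40). DYNLT1 and DYNLRB1 did not pass without the second pair (0.16 and -0.22) or the third (0.13 and -0.22).

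Probe sets of one gene can read different transcripts or transcript ends, and 22 member genes had at least 2 probe sets past the limit. A test of each probe set against the others of its gene (limma's diffSplice, adjusted over all 11404 probe sets of such genes and added after the values were seen) found a difference in 6 of these 22 genes (27.3%), against 33.2% of all 4452 such genes. These were KIF16B, KIF1B, KIF3A, KLC1, DYNC1I2 and DYNLL2. For KIF16B, probe set 232083_at was at 7.80, 7.39 and 7.58 in TGFβ arrays, against 6.36, 6.33 and 6.43 in untreated arrays, a log2 fold change of 1.22 (adjusted p over all probe sets 0.00014). Its untreated mean, 6.37, was below the limit, so it was tested only through its TGFβ arrays and a difference was in part required. Probe set 219570_at was at 8.52, 8.08 and 8.19 with TGFβ and 8.13, 8.18 and 8.39 without (0.034, adjusted p = 0.82). The 1 probe set separated the groups fully and the other did not, and they differed by 1.18 (adjusted p = 0.00070).

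KIF1B combined opposite movements in a gene mean near 0. Its probe set 209234_at was lower with TGFβ, at 8.30, 8.23 and 8.32 against 8.73, 8.65 and 8.91 in untreated arrays (-0.48, adjusted p = 0.0012). Probe set 226968_at was higher, at 9.53, 9.39 and 9.42 against 9.20, 9.13 and 9.24 in untreated arrays (0.26, adjusted p = 0.011). The third, 225878_at, was 0.16 and did not pass (adjusted p = 0.051). For KIF3A, 228680_at was lower (-0.37, adjusted p = 0.0047), as KIF3B and KIFAP3 were, and 213623_at did not pass (0.13).

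DYNC1I2 was read by probe set 211684_s_at, which averaged 12.07 ± 0.076 in TGFβ arrays and 12.10 ± 0.022 in untreated arrays (SD, n = 3 each) and did not pass (-0.028, adjusted p by limma 0.73). The other, 242363_at, averaged 6.36 ± 0.083 with TGFβ and 7.13 ± 0.13 without, and it alone carried the fall of the gene (-0.77, adjusted p 0.00043). It was tested only through its untreated arrays, since its TGFβ mean was below the limit. DYNLL2 fell in 238467_at, at 6.69, 6.67 and 6.54 with TGFβ against 7.61, 7.54 and 7.72 without (-0.99, adjusted p = 0.00020), with a TGFβ mean of 6.63 just below the limit, and in 225494_at (-0.41), whereas 229106_at was 0.18 and did not pass. In KLC1 all 3 probe sets were higher, by 0.57, 0.52 and 0.26, and only the smallest of these differed from the others (adjusted p = 0.037). At the level of probe sets, 43 of 75 (57.3%) passed, 19 higher and 24 lower, against 55.1% of all probe sets (26.6% higher and 28.5% lower).

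**Figure D4:**
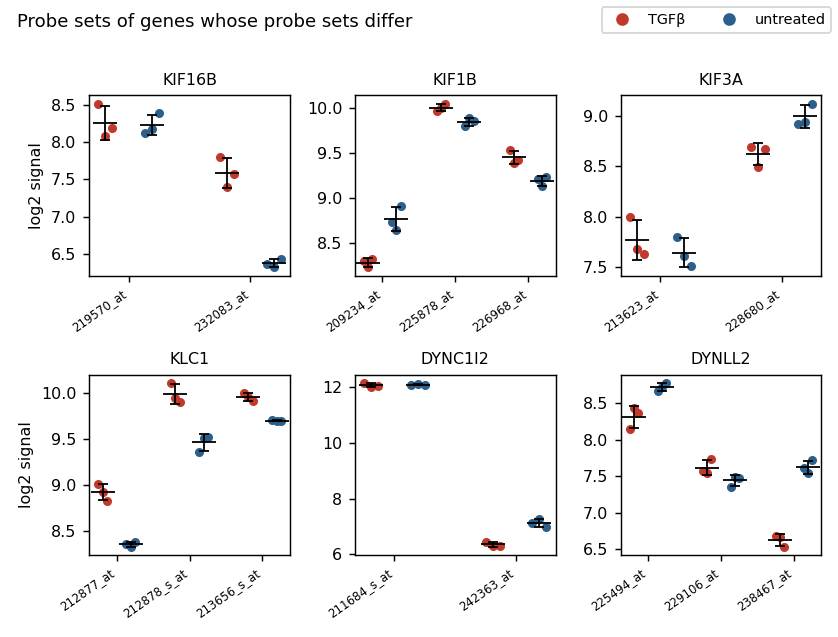
Log2 signal per array (points) of each probe set past the signal limit for the 6 motor genes whose probe sets differed, TGFβ red and left of untreated blue in each pair; bars are the mean and SD of 3 arrays, and the axes do not start at 0. In KIF1B one probe set is lower with TGFβ while the others are higher or do not pass, and in KIF16B and DYNC1I2 only one probe set separates the groups.

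Partners of the motors moved in both directions. Of all genes, 27.7% were higher and 31% lower. Of 10 dynactin subunits tested, none was higher and 3 (30%) were lower (DCTN4 -0.24, DCTN3 -0.18 and ACTR10 -0.16), with 7 not passing. Among 16 dynein adaptors and regulators, 7 were higher (43.8%) and 3 lower (18.8%). SPDL1, which recruits dynein to kinetochores, was at 12.03, 12.03 and 11.96 in TGFβ arrays, against 9.91, 9.89 and 9.99 in untreated arrays, 4.21-fold higher (log2 fold change 2.07, adjusted p = 5.4e-06). No motor gene changed by as much. NUMA1, which anchors dynein at spindle poles and the cortex, was 1.81-fold lower (-0.85), HOOK2 was higher (0.51) and HOOK3 lower (-0.48). The TGFβ mean of HOOK3, 6.19, was below the signal limit, so a difference was in part required for it to be tested. Of 13 kinesin cargo adaptors and partners, 4 were higher (30.8%) and 1 was lower (7.69%). The largest differences were in SPAG9, a kinesin-1 adaptor, at 0.39, PLEKHM2 (0.33), MAPK8IP3 (0.30) and TRAK2 (0.28). The untreated mean of MAPK8IP3, 6.53, was below the limit, so a difference was in part required there too. The lower one was KIFBP (-0.24), which binds several kinesin motor domains.

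For spindle and midbody partners of the mitotic kinesins, 4 of 18 were higher and 3 were lower, with 11 not passing. These shares were 22.2% and 16.7%, against 27.7% and 31% of all genes. The list included CENPE, itself a mitotic kinesin that the symbol rule leaves out, which did not pass (-0.065). The kinases PLK1 (0.53) and AURKB (0.36) were higher, whereas ECT2 (-0.50) and RACGAP1 (-0.33), which start the cleavage furrow with KIF23, were lower. Proliferation genes showed a similar division, with 5 of 20 higher (25%), 6 lower (30%) and a median of -0.027. CCNA2 (0.39), FOXM1 (0.28) and MYBL2 (0.27) were higher and TOP2A (-0.26) was lower. These levels were read on the same arrays as the mitotic kinesins, and their part in those differences was not tested.

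**Figure D5:**
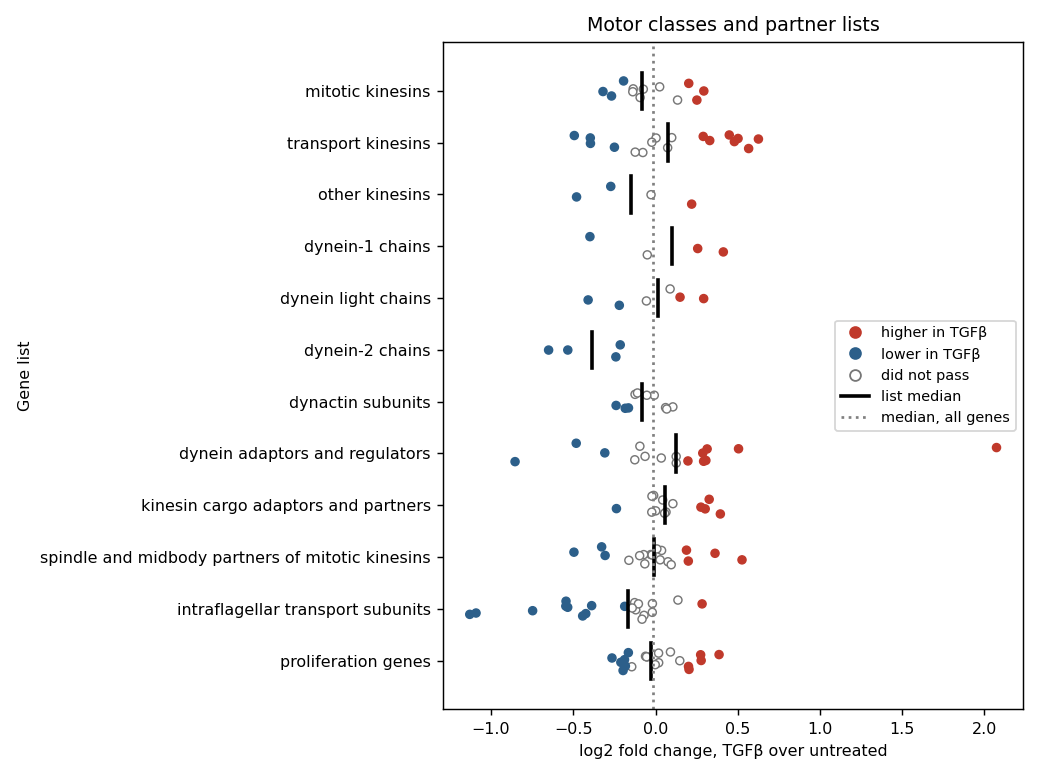
Log2 fold change (TGFβ over untreated) of each tested gene (points) in the 6 motor classes and 6 lists of partner and proliferation genes, with list medians as black bars and the median of all genes as a dotted line; filled points passed the test. DYNC2 chains (median -0.39) and IFT subunits (-0.16) lie mostly left of the line, and SPDL1 stands alone at 2.07 among the dynein adaptors.

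The 15 members below the signal limit in both groups were KIF2B, KIF6, KIF12, KIF13B, KIF17, KIF19, KIF21B, KIF24, KIF25, KIF26B, KIF27, DYNC1I1, DYNLRB2, DYNLT2 and DYNLT5. With all genes fitted without the limit, 1 of them passed, against 26.8% of all genes. It was DYNLRB2, at 3.66 ± 0.060 in TGFβ arrays and 3.90 ± 0.054 in untreated arrays (SD, n = 3 each), both far below the limit.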

How the data were processed

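The deposited values of 54675 probe sets on 6 arrays ran from 2.89 to 14.8 and were therefore taken as log2 signals. How the authors summarised or normalised them is not stated. The 62 control probe sets were left out, and genes were named from the platform's annotation where it gave exactly 1, with symbols updated by Entrez ID through the RefSeq table.

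As in the methods, probe sets averaging a signal under 100 in both groups were dropped and the replicate number was used as a block. Differences are TGFβ minus untreated, tested two-sided with limma 3.58.1 (lmFit, eBayes) in R 4.3.3 on 2 residual and 4.12 prior degrees of freedom, and adjusted by Benjamini-Hochberg over 10115 genes or 19101 probe sets. The workflow was tested on simulated data first. The number of arrays limits the precision.

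The members, classes and gene lists were chosen with earlier results of these data known. Every tested member could be named. Values per array were to be given for members changed by at least 1.5-fold and for the 2 smallest differences per class, and of other lists at most 4 genes with the largest differences were named. Values per array of other members, the IFT list with its IFT57, KIFBP, CENPE and the test between probe sets were chosen after values were seen. Alternatives covered the block, the filter, normalisation, the logarithm, the variance model, the probe sets used, the threshold, the methods' t-test and the pairs of arrays. Promoters were searched in Python 3.11.15 with pandas 2.3.3, and plots were drawn with matplotlib 3.10.9.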

Additional observations from a re-analysis of the deposited data

How the results depend on the processing

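Of 47 motor genes, 31 passed and 6 of these passed under all 16 alternatives run per gene (KIF2C, KIFAP3, KIF3B, KIF3C, DYNLL2 and DYNC2I2). KIFC3 passed in the 14 in which it was tested. It fell below the limit when this was set on the mean of the 6 arrays, and without the first pair. KIF1B, which did not pass, was higher at 0.16 when its brightest probe set stood for it. On that choice KIF16B (0.034), DYNC1I2 (-0.028), KIF14 (0.071), DYNC1H1 (0.28) and KIFC2 (-0.19) did not pass, and KIF3A (-0.37) did. The number of motor genes that passed was 20 at an adjusted p under 0.01 (41.4% of all genes), and by the methods' t-test it was 12 after Benjamini-Hochberg (4 transport kinesins, 23.9% of all genes), with 21 at an unadjusted p under 0.05 (48.1%). The mitotic kinesins that passed were 2 higher and 0 lower at an adjusted p under 0.01, and 3 higher and 1 lower by the methods' t-test, adjusted or not, and without the signal filter. Tested singly, 19 of 29 transport probe sets passed, against 55.4% of all single-gene probe sets past the limit. Without the signal filter 22 of 62 members passed (26.8% of all genes), 13 higher and 9 lower, KIF5C, KIF7, KIF9, KIF18A, KIF22, KIF26A, DYNC2H1, DYNC2I1, DYNLRB1 and DYNLT1 not among them, and the median of transport kinesins was -4.2e-05. With each pair of arrays left out, 22 to 32 motor genes and 1 to 8 mitotic kinesins passed, and the median of transport kinesins was -0.028 to 0.076. Without the first pair that median turned negative.

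Same-numbered arrays deviated from their group means with correlations of -0.24, 0.24 and 0.11, and the first 2 TGFβ arrays correlated best with an untreated array of another number, so the data do not show that the numbers pair the arrays. The block was kept since the original test was paired. Without the replicate block 31 motor genes passed (61.9% of all genes), among them 7 mitotic kinesins (KIF20B was gained), and KIF7 was lost. Dim probe sets and 3 arrays per group limit what can be detected, and an uncalled gene is not shown to be unchanged.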
